A study of Bos taurus with 11 samples.

Results

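Fc receptors bind the constant part of antibodies on the surface of white blood cells, and most of them signal through small partner proteins. The genes described here are 3 receptors for IgG (FCGR1A, FCGR2B and FCGR3A), the adaptors FCER1G, TYROBP and HCST, and the kinase SYK, read in peripheral blood mononuclear cells of cattle. The members are the probes that carry one of these 7 gene names in the array's annotation, each kept apart. They number 13 of 43653 probes and cover 6 of the 24839 gene names on the array, since no probe is named FCGR2B. There were 5 animals of the Ladakhi breed, labelled as high altitude, and 6 of the Sahiwal breed, labelled as low altitude. All were female, no agent was given to either group according to the labels, and each animal was read on an array of its own. Breed and altitude are the same split of the animals, so they cannot be told apart. Ages are not given in the sources used here.

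As background, the adaptors FCER1G (the common gamma chain) and TYROBP (DAP12) carry an immunoreceptor tyrosine-based activation motif, or ITAM. When a receptor binds its ligand, the tyrosines of the motif are phosphorylated, the kinase SYK docks there and becomes active, and the cell may take up the antibody-coated particle, kill the antibody-coated cell or release cytokines. HCST (DAP10) carries a different motif, YxxM, which recruits phosphoinositide 3-kinase. In blood, these genes are best known from monocytes, neutrophils and natural killer (NK) cells, and SYK also from B cells.

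The probes below are shown because they carry the signalling motifs of the pathway or decide the comparisons that follow. They are the array's own sequences, and their coordinates are on HGSC Btau_3.1, the build named in the scanner files. Capitals mark the codons of the ITAM in FCER1G and of the YxxM motif in HCST, read in an open frame on the probe strand.
FCER1G probe A_73_111866: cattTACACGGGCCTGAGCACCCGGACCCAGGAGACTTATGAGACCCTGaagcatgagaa
HCST probe A_73_P030886: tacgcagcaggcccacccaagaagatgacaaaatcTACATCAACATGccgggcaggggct
The FCER1G motif fills bases 5 to 49 of the probe, which lies at chr3:9213880-9214104 on the minus strand. The HCST motif fills bases 36 to 47 of a probe at chr18:46015722-46016008 on the plus strand.
Both probes have 60 bases but span 225 and 287 bases of the genome, so their matches are split. An ITAM in an open forward frame was found in 27 of 43653 probes (0.0619%), with the pattern of a tyrosine codon, any 2 codons and a leucine or isoleucine codon, repeated after 6 to 8 codons. The YxxM pattern, a tyrosine codon, any 2 codons and a methionine codon, was found in 569 probes (1.30%).

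The next 3 stretches belong to the probes that stand for their gene in the ratios or carry its call below, and capitals mark the polyadenylation signal AATAAA.
TYROBP probe A_73_118891, bases 31 to 60: ctccccactactgcccccaAATAAAcattg
SYK probe A_73_P030256, bases 31 to 60: gaaaaactttccccAATAAAagtgctttga
FCER1G probe A_73_P031971, bases 1 to 30: tgattcctcctcgtcaaagacctcagatgc
The TYROBP probe lies at chr18:46016252-46016311 and the SYK probe at chr8:91285191-91285250, both on the minus strand. The FCER1G probe lies at chr3:9213664-9213723 on the minus strand and shows no AATAAA. On the probe strand, AATAAA is present in 4083 of 43653 probes (9.35%). In RefSeq's table for the ARS-UCD2.0 assembly, which served here for names and neighbours, HCST and TYROBP are next to each other, and the probes for them lie on opposite strands. No annotation of the files' own build was used here, so exon, intron and UTR are not assigned.

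A further pair of stretches shows why some probes of FCGR3A cannot be taken as separate measurements.
FCGR3A probe A_73_P032171, bases 26 to 55: aagctcagaggaatggaggCatggcaaagt
FCGR3A probe A_73_102350, bases 31 to 60: aagctcagaggaatggaggGatggcaaagt
They overlap over 55 bases with 1 mismatch, C45G, counted from the 5′ end of A_73_P032171 and shown in capitals. The pair of FCGR1A probes overlaps over 59 bases with 4 mismatches (T5A, T14A, G26A and G31A, counted from the 5′ end of A_73_114796).

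The arrays of the breeds differed in what they could detect. Between 4243 and 6608 of 43803 spots were well above background on the Ladakhi arrays, against 17517 to 20574 on the Sahiwal arrays. An Agilent scanner read the Ladakhi arrays and an Axon GenePix scanner the Sahiwal arrays, and the extraction software differed in version. No slide held both breeds, so breed, scanner, software and slide cannot be told apart. Here a level is log2 of the processed Cy3 signal minus the array's reference, which is the 75th percentile over the 2705 probes well above background on all 11 arrays. The reference signal was 791 to 1834 in Ladakhi and 6449 to 15176 in Sahiwal. The lowest level that still counted as well above background, averaged over the arrays of a breed, was -3.66 for Ladakhi and -8.22 for Sahiwal, so a level below -3.66 was on average out of reach in Ladakhi. A difference is the Ladakhi mean minus the Sahiwal mean. It was tested with limma, with Benjamini-Hochberg adjustment over the 17865 probes detected in this sense on 4 or more arrays of Ladakhi or of Sahiwal, and a probe is called at an adjusted p under 0.05. A probe that passed in both breeds is termed measured. Nothing in the labels says how the animals of a breed are related or how the blood was handled, so the p-values measure the spread between these samples. In bulk samples, fewer cells of a type and less RNA per cell cannot be told apart.

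Of the 13 member probes, 11 were tested and 4 were measured: 1 of FCER1G, 2 of TYROBP and 1 of FCGR3A. FCER1G was higher in Ladakhi and FCGR3A was lower, while neither TYROBP probe was called. SYK was bright in Sahiwal and was detected in 1 Ladakhi animal. Of the 4 measured probes, 1 was called higher, beside 18.2% of all 4048 measured probes, and 1 was called lower, beside 14.6%. In either direction these are 2 of 4, beside 32.7%. Over all tested probes, 4 of 11 members were called, beside 41.8% of the 17865. The share of called members is thus near that of the array at large and is not a result about the members.

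**Figure D1:**
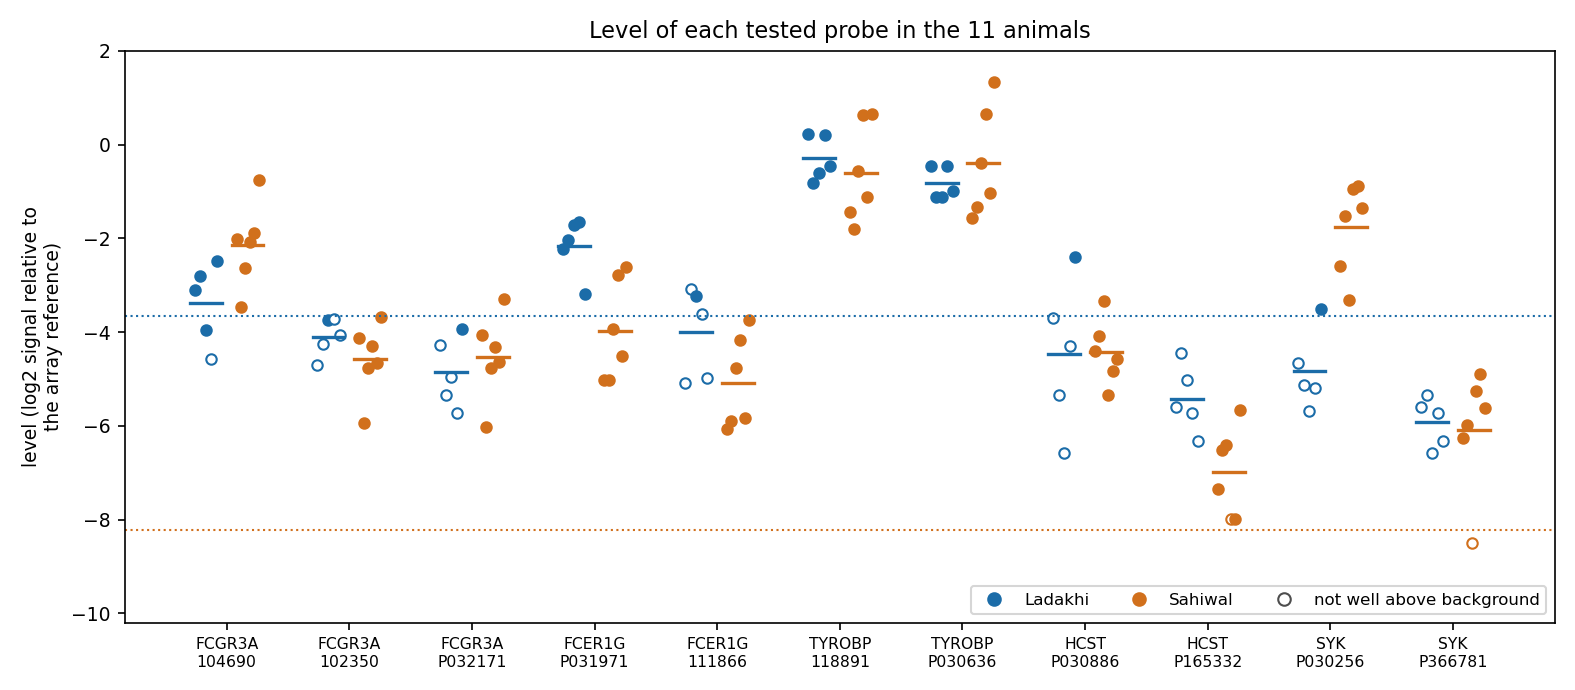
The level of each tested member probe in each animal (vertical axis, log2 signal relative to the array reference), with probes along the horizontal axis, Ladakhi in blue and Sahiwal in orange; short lines are breed means, open points were not well above background, and dotted lines are each breed's mean detection limit (-3.66 and -8.22). TYROBP was above both limits in all 11 animals, the FCER1G probe P031971 is higher in Ladakhi, and the SYK probe P030256 has 1 filled Ladakhi point.

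Among the receptors, FCGR3A (CD16) is the low-affinity IgG receptor through which NK cells and some monocytes recognise antibody-coated cells. Its probe A_73_104690 (chr3:8726070-8726129, plus strand) had levels of -3.10, -2.80, -3.96, -4.58 and -2.48 in Ladakhi animals 1 to 5, the value of animal 4 being not well above background. The levels were -2.01, -3.46, -2.63, -2.07, -1.89 and -0.75 in Sahiwal animals 1 to 6. The breeds overlap, since Sahiwal animal 2 lies below 3 Ladakhi animals, but all 5 Ladakhi values lie below the Sahiwal median. The Ladakhi mean was -3.39 ± 0.87 (SD, n = 5) and the Sahiwal mean -2.14 ± 0.89 (SD, n = 6), a difference of -1.25 ± 0.47 (SE), or 2.38-fold lower, with a limma adjusted p of 0.0470. Of the 3747 measured probes with a Sahiwal mean above the Ladakhi limit, like this one, 15.7% were called lower. The call was kept in 8 of 14 processing alternatives, with adjusted p from 0.0100 to 0.170. It was also kept in 4 of 11 fits that left out an animal, and was lost without Ladakhi 1, 3 or 4 and without Sahiwal 1, 4, 5 or 6 (adjusted p up to 0.123). The difference was negative in every one of these fits.

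The other FCGR3A probes, the overlapping pair shown above, were well above background in all 6 Sahiwal animals and in 1 Ladakhi animal each. A_73_102350 had a difference of 0.48 (limma adjusted p = 0.320) and A_73_P032171 one of -0.33 (limma adjusted p = 0.587). Their Sahiwal means, -4.58 and -4.52, lie below the Ladakhi limit, so a lower Ladakhi level could not have been seen. The detected Ladakhi value of A_73_102350 was -3.75 in animal 3, beside Sahiwal levels of -5.94 to -3.68. That of A_73_P032171 was -3.93 in animal 5, beside -6.03 to -3.29. In 2 of 14 processing alternatives A_73_102350 was called higher, and A_73_P032171 was called in 0. These were normexp (1.19, limma adjusted p = 0.000858) and dim signals raised to the array's limit (1.03, limma adjusted p = 0.0148). Whether these probes share the lower level of A_73_104690 could not be read.

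FCGR1A (CD64), the high-affinity IgG receptor of monocytes, was not detected. Both its probes, at chr3:22402102-22402161 and chr3:22402103-22402162, were not well above background on any of the 11 arrays. With no array above background, no level or fold is given for this gene, and on the Sahiwal arrays, where the limit was lower, it was not detectable either.

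FCGR2B is the inhibitory IgG receptor that restrains B cells and myeloid cells. The rule found no probe of that name, but 3 probes named FCGR2 carry an accession that the RefSeq table assigns to FCGR2B. They were picked out after the names had been seen and are not counted as members. The brightest, A_73_120633 (chr3:8648891-8648950, minus strand), had levels of -5.02, -3.21, -3.35, -2.15 and -3.24 in Ladakhi, with animals 1 and 2 not well above background. It had levels of -2.25, -2.22, -3.72, -1.01, -0.51 and -1.87 in Sahiwal. All 5 Ladakhi values lie below the Sahiwal median, and the breeds overlap, since 4 Ladakhi animals lie above Sahiwal animal 3 and Ladakhi animal 4 also lies above Sahiwal animals 1 and 2.
With dim Ladakhi signals raised to their array's lowest signal well above background, FCGR2 was at least 2.12-fold lower (limma adjusted p = 0.0391, and 0.0489 on the signals as deposited). This probe was detected on 3 Ladakhi arrays and passed the filter through Sahiwal, where 35.6% of probes of this kind were called lower in the same way, so the call is read against that share. Of the other FCGR2 probes, A_73_P107656 was on 0 Ladakhi and 6 Sahiwal arrays and A_73_P032421 on 1 and 2, and neither gives a fold.

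FCER1G is the adaptor that FCGR1A, FCGR3A and the IgE receptor share. Its probe A_73_P031971 had levels of -2.23, -2.03, -1.71, -1.65 and -3.18 in Ladakhi animals 1 to 5. In Sahiwal animals 1 to 6 the levels were -5.01, -5.01, -3.93, -2.78, -4.52 and -2.62. All 5 Ladakhi values lie above the Sahiwal median, and the overlap comes from Ladakhi animal 5 against Sahiwal animals 4 and 6. The Ladakhi mean was -2.16 ± 0.62 (SD, n = 5) and the Sahiwal mean -3.98 ± 1.07 (SD, n = 6). FCER1G was thus higher in Ladakhi by 1.82 ± 0.48 (SE) on the log2 scale, or 3.52-fold, with a limma adjusted p of 0.00857. This held in all 14 processing alternatives (differences of 1.80 to 2.46) and in all 11 fits without an animal (1.61 to 2.09, adjusted p at most 0.0226).

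The direction is relative to each array's reference. The processed signals of this probe were 218, 251, 560, 251 and 131 in Ladakhi and 470, 420, 424, 1418, 414 and 1670 in Sahiwal, so the signal itself was not higher in Ladakhi. The Sahiwal mean of FCER1G also lies below the mean Ladakhi limit of -3.66, where a probe could count as measured only if its Ladakhi level was higher. Of the 301 measured probes with such a Sahiwal mean, 74.4% were called higher and 0 were called lower. Among the 3747 measured probes with a Sahiwal mean above the limit, 13.7% were called higher. The FCER1G call is to be read against the 74.4%.

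The FCER1G probe with the ITAM codons, A_73_111866, was well above background in Ladakhi animal 3 and in all 6 Sahiwal animals. Its level was -3.23 in that Ladakhi animal, and in Sahiwal it ran from -6.06 to -3.74. The difference was 1.08 ± 0.52 (SE) and was not called (limma adjusted p = 0.107), and most of the Ladakhi values behind it were not above background. Its Sahiwal mean of -5.08 lies below the Ladakhi limit, so a lower Ladakhi level could not have been seen. The sign of this difference is therefore not read beside that of the other probe.

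TYROBP is the ITAM adaptor of activating NK receptors and of the myeloid TREM receptors. It was the one member gene with all its probes, 2 of 2, well above background on all 11 arrays. A_73_118891 had levels of 0.21, -0.83, -0.61, 0.19 and -0.46 in Ladakhi. In Sahiwal its levels were -1.45, -1.80, -0.57, 0.62, -1.13 and 0.64. The Ladakhi animals sit inside the Sahiwal range, which is 5.43-fold wide against 2.06-fold in Ladakhi. The difference was 0.31 ± 0.46 (SE), with a 95% interval of -0.67 to 1.29 and a limma adjusted p of 0.604.

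The second TYROBP probe, A_73_P030636 (chr18:46016359-46016418, minus strand), had levels of -0.46, -1.11, -1.11, -0.46 and -0.98 in Ladakhi and of -1.57, -1.34, -0.40, 0.65, -1.03 and 1.34 in Sahiwal. Again the Ladakhi animals lie inside the Sahiwal range. The difference was -0.43 ± 0.48 (SE), with a 95% interval of -1.46 to 0.59 and a limma adjusted p of 0.490. The probes differ in sign, neither was called in any alternative, and the interval of the former reaches past a 2-fold higher level while that of the latter reaches past a 2-fold lower one.

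HCST, the partner of the NK receptor NKG2D, was near the limit. The probe with the YxxM codons, A_73_P030886, had Sahiwal levels of -4.41, -4.08, -3.34, -5.34, -4.84 and -4.57, all well above background there. It was well above background in Ladakhi animal 5 alone. The other HCST probe, A_73_P165332 (chr18:46015523-46015582, plus strand), was on 0 Ladakhi and 5 Sahiwal arrays. Both Sahiwal means lie below the Ladakhi limit, so no direction and no fold are read, although the second probe passed the threshold (limma adjusted p = 0.0148) on Ladakhi values that were not above background.

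SYK is the kinase that binds the phosphorylated ITAM and passes the signal on. Its probe A_73_P030256 had processed signals of 40, 30, 36, 22 and 105 in Ladakhi, of which that of animal 5 was well above background. The Sahiwal signals were 2533, 4698, 644, 5100, 5138 and 4011. As levels, these are -4.67, -5.12, -5.69, -5.20 and -3.51 in Ladakhi and -2.58, -1.53, -3.32, -0.94, -0.88 and -1.35 in Sahiwal. The breeds do not overlap, as was the case for 38.4% of the 2404 probes detected on under 4 Ladakhi arrays with a Sahiwal mean above the Ladakhi limit, and the nearest values are those of Ladakhi animal 5 and Sahiwal animal 3. Since 4 of 5 Ladakhi values are bounds, SYK was at least 3.46-fold lower in Ladakhi (Sahiwal mean -1.77 ± 0.98, SD, n = 6). The difference with dim signals raised was -1.79 and had a limma adjusted p of 0.000794. Of the same 2404 probes, 35.6% were called lower in this way. The call held in all 14 alternatives (-3.19 to -1.75) and all 11 fits without an animal. This probe passed the filter through Sahiwal, and these fits reuse Ladakhi signals that were mostly not above background. How often the calls of like probes also held is not given here, so this is not read as support.

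The second SYK probe, A_73_P366781 (chr8:91300052-91300111, minus strand), was on 0 Ladakhi and 5 Sahiwal arrays. Its Sahiwal mean of -6.09 lies below the Ladakhi limit, so it gives no fold. The lower SYK level thus rests on a single probe.

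**Figure D2:**
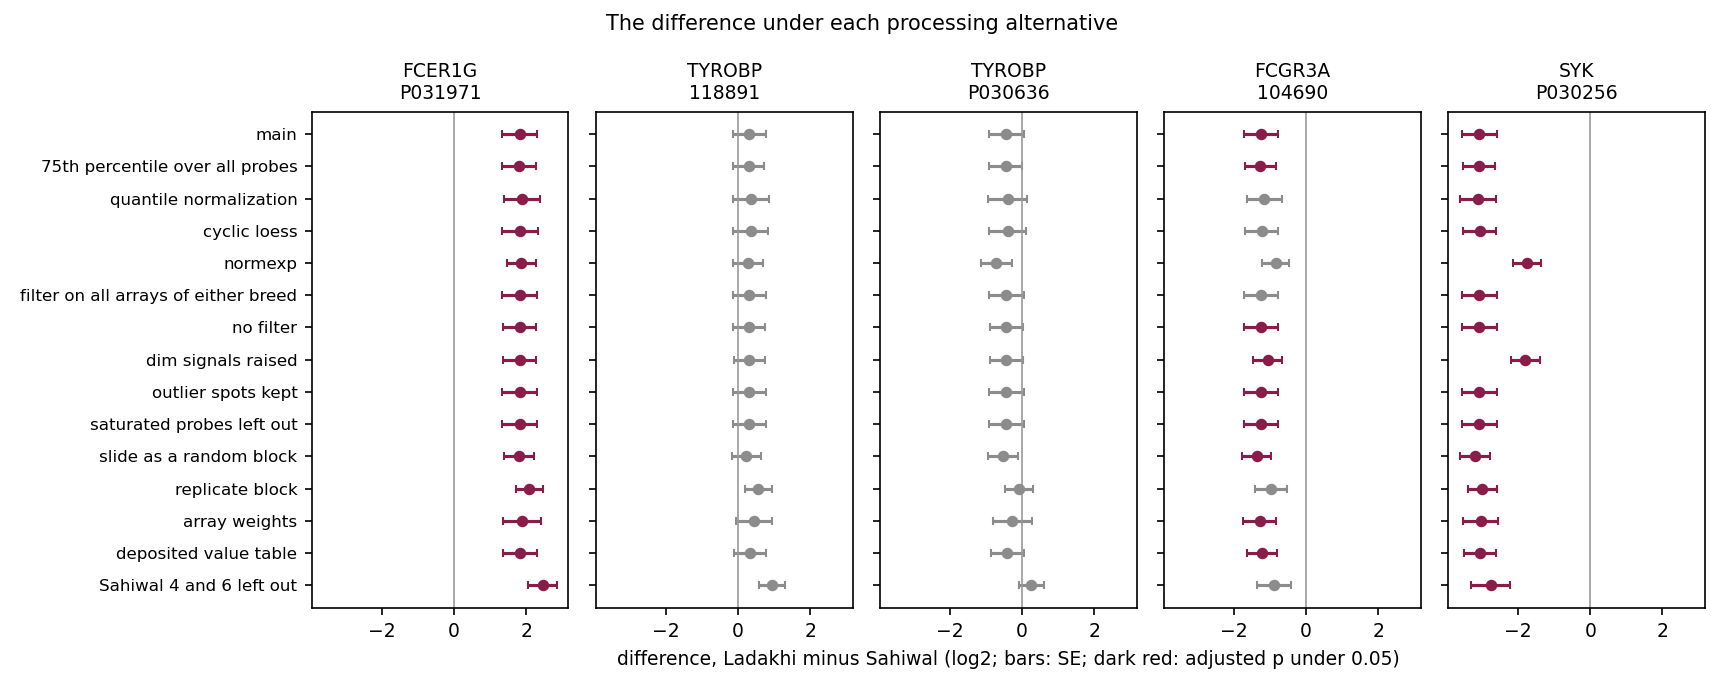
The difference between the breeds (horizontal axis, log2, Ladakhi minus Sahiwal, bars are SE) of 5 member probes under each processing alternative (vertical axis); dark red points have an adjusted p under 0.05. FCER1G stays between 1.80 and 2.46 and SYK between -3.19 and -1.75, whereas FCGR3A is called in 8 of 14 alternatives and the TYROBP probes in none.

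Ratios between probes on the same array do not depend on how the arrays are scaled. A ratio between probes of different genes has no meaning as a level, because probes differ in response, so only its difference between breeds was read. All 3 pairs of measured member genes were compared with a two-sided exact permutation test over the 462 splits of the animals, whose smallest p is 0.00216, with Benjamini-Hochberg adjustment over the 3.

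FCER1G over TYROBP (A_73_P031971 over A_73_118891) had log2 ratios of -2.44, -1.21, -1.10, -1.85 and -2.73 in Ladakhi. In Sahiwal the ratios were -3.57, -3.22, -3.36, -3.41, -3.39 and -3.26. The Sahiwal animals, which spread 5.27-fold in FCER1G itself, lie within an SD of 0.12 in this ratio (mean -3.37, n = 6), and the Ladakhi animals within 0.72 (mean -1.86, n = 5). All Ladakhi values lie above all Sahiwal values. The difference was 1.50, or 2.83-fold (exact permutation p = 0.00216, the smallest possible, adjusted p = 0.00325). With the other TYROBP probe it was 2.25. The FCER1G probe in this ratio has a Sahiwal mean below the Ladakhi limit, where a probe counted as measured only if its Ladakhi level was higher. The direction of the ratio is thus not independent of that filter. The 74.4% given above is a share of single probes, and the share of other ratios without overlap is not given here.

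FCGR3A over FCER1G, the receptor over its own adaptor, had log2 ratios of -0.87, -0.77, -2.25, -2.93 and 0.70 in Ladakhi and of 3.01, 1.55, 1.30, 0.71, 2.63 and 1.86 in Sahiwal. The breeds touch without overlapping, at Ladakhi animal 5 and Sahiwal animal 4. The difference was -3.07, or 8.38-fold lower in Ladakhi (exact permutation p = 0.00216, adjusted p = 0.00325). The FCGR3A signal of Ladakhi animal 4, which has the lowest ratio, was not well above background, and the difference was -2.88 with such signals raised. The FCER1G probe is again the one to which the 74.4% applies, and the share of other ratios without overlap is not given here either. FCGR3A over TYROBP differed by -1.56, or 2.96-fold lower, with overlapping breeds (exact permutation p and adjusted p = 0.0303). The last of these lost its call without Ladakhi 1, 3 or 4 and without Sahiwal 1, 2, 5 or 6, with values between -1.84 and -1.14 over the 11 fits without an animal. The 3 ratios share probes and are not independent of each other.

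**Figure D3:**
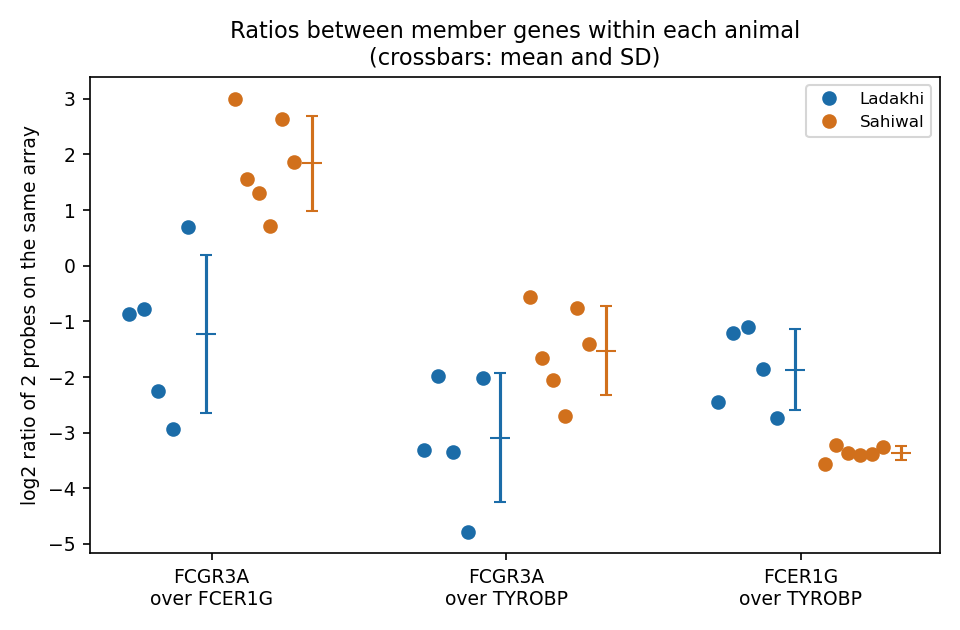
The log2 ratio of 2 member probes on the same array (vertical axis) for each animal, for the 3 pairs of measured genes (horizontal axis); points are animals and crossbars show the mean and SD. For FCER1G over TYROBP the 6 Sahiwal animals lie between -3.57 and -3.22, below all 5 Ladakhi animals.

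Within the Sahiwal breed, FCER1G and TYROBP were highest in the animals with the highest granulocyte and monocyte marker sums. Animals 4 and 6 had the highest levels of FCER1G and of both TYROBP probes. The summed level of a marker list is log2 of the summed relative signal over its tested genes. For the granulocyte list, 4 of 14 genes were tested. Its sum was 0.47 and 0.70 in these animals, against -2.65 to -1.96 in the other 4. The same animals also had the highest sums of the monocyte list, 4.72 and 5.03. The HCST probe A_73_P030886 did not follow them, since it was lowest in animal 4, and the NK sum was also lowest there. The other HCST probe, A_73_P165332, was highest in animal 6 (-5.67), and its value in animal 4 (-7.98) was not well above background. Sahiwal animals 1 and 2, which share a slide, had the lowest FCER1G and TYROBP A_73_118891 levels. With animals 4 and 6 left out, an alternative chosen after seeing the data, FCER1G differed by 2.46 (limma adjusted p = 0.00155). FCGR3A then differed by -0.89 (limma adjusted p = 0.170) and the TYROBP probes by 0.94 and 0.26 (limma adjusted p = 0.0637 and 0.580). The part of these cells in the breed differences was not tested otherwise.

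The labelled cell type was checked against marker lists. Genes of monocytes, NK cells, B cells and T cells were measured in both breeds. Over all measured probes, 14.6% were called lower and 18.2% higher, and the counts of each marker list stand beside these shares. Of 14 monocyte markers, 6 were measured, and 4 of these were called lower and 0 higher (median difference -1.47). CSF1R differed by -0.07 and was not called (limma adjusted p = 0.891). S100A12 differed by -0.64 and was not called (limma adjusted p = 0.171), with its other measured probes from -2.87 to -1.05. S100A8, a calcium-binding protein of monocytes and neutrophils, was lower by 2.20 and LYZ, lysozyme, was lower by 1.80. The summed level of the 12 tested monocyte markers was 2.57 to 3.55 in Ladakhi and 3.46 to 5.03 in Sahiwal. CD68, VCAN and CLEC7A were not well above background on any Ladakhi array. FCGR3A and SYK were lower beside these markers, and FCER1G was higher. The part of monocyte number in the FCGR3A and SYK differences was not tested.

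Of 13 NK cell markers, 4 were measured, of which 2 were called higher and 0 lower (median difference 1.43). CST7, cystatin F, was higher by 2.25 and GNLY, granulysin, was higher by 1.70. CST7, like FCER1G, had a Sahiwal mean below the Ladakhi limit. GZMB, a granzyme, was lower by 0.48 and not called (limma adjusted p = 0.547), with a second probe at 0.85. The NK sum, over 7 tested genes, lay between 1.24 and 2.06 for Ladakhi, above the Sahiwal range of -1.16 to 1.01. How often sums of other genes also fail to overlap is not given here. Of the 7 genes, 3 were well above background on only 1 to 3 Ladakhi arrays. NCR1, KLRD1, KLRF1, KLRB1, GZMA and EOMES were not tested. FCGR3A, which NK cells carry, was lower where this sum was higher, and the part of NK cell number was not tested.

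Of 9 B cell markers, 4 were measured and 2 were called higher, with a median of 0.99. BLK, a SRC-family kinase of B cells, was higher by 1.08. CD79A, a chain of the B cell receptor, differed by -0.11 and was not called (limma adjusted p = 0.803). CD79B was not well above background on any Ladakhi array, and PAX5 and CD22 were not tested. The B cell sum was 1.51 to 1.98 in Ladakhi and 0.59 to 1.70 in Sahiwal. Of 11 T cell markers, 3 were measured and 2 were called higher, namely CD2, an adhesion receptor, by 2.46 and LEF1, a transcription factor, by 0.97. CD2 had a Sahiwal mean below the Ladakhi limit, and the T cell sums overlapped (0.04 to 1.61 and 0.18 to 1.34). CD6 and CD27 were not well above background on any Ladakhi array, and BCL11B was not tested. None of the 14 granulocyte markers was measured in both breeds, and the sum of the 4 tested was -3.59 to -2.10 in Ladakhi. CSF3R, MMP9 and LTF were not well above background on any Ladakhi array. Of the mast cell and basophil list, FCER1A alone was tested, on 0 Ladakhi arrays. PF4 of platelets and HBB of red cells, each the measured gene of its list, were not called.

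Of 148 other genes of the Fc pathway in 5 lists, 49 were measured, of which 6 (12.2%) were called higher in Ladakhi and 12 (24.5%) lower. With Sahiwal animals 4 and 6 left out, 5 were called higher and 4 lower. The share over all measured probes in that smaller fit is not given here, so the fall is not read as a result about these genes. A gene was represented by its brightest tested probe, and the lists were chosen with results of these data known. For comparison, of all 4048 measured probes 736 (18.2%) were called higher and 589 (14.6%) lower, and their median difference was -0.02. Among the measured pathway genes, PIK3CD and NCF1 alone had a Sahiwal mean below the Ladakhi limit. Of the 3747 measured probes with a Sahiwal mean above it, 13.7% were called higher and 15.7% lower, which is the nearer comparison.

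Among 23 other Fc receptors, FCGRT alone was measured. FCGRT, the neonatal receptor that protects IgG and albumin from breakdown, was lower by 1.32 ± 0.26 (SE, 2.50-fold, limma adjusted p = 0.00157), but its other measured probe differed by 0.46 in the opposite direction. Of 30 partner receptors of the adaptors, 5 were measured, 2 were called higher and 1 lower (median 0.25). NCR3, the activating NK receptor NKp30, was higher by 1.11 (limma adjusted p = 0.0359). CD247, the zeta chain that pairs with FCGR3A in NK cells and with the T cell receptor, was higher by 0.97 (limma adjusted p = 0.0352), with a second probe at -0.19. TREM1, a myeloid receptor that signals through TYROBP, was lower by 1.08 (limma adjusted p = 0.0491). The TREM1 level in Ladakhi animal 2, -3.53, was not well above background. Without that animal the difference was -1.04 and was not called (limma adjusted p = 0.0895). These receptors differed in sign among themselves, and TYROBP, which they do not all use, was not called.

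Of 36 proximal kinases and adaptors, 14 were measured, of which 1 was called higher and 2 lower (median -0.14). CARD9, which relays SYK signals in myeloid cells, was higher by 0.99 (limma adjusted p = 0.0213). PRKCB, a protein kinase C, was lower by 1.20 (limma adjusted p = 0.00221), with a second probe at -0.87. VAV1, an exchange factor for RAC, was lower by 0.95 (limma adjusted p = 0.0115). LYN, the kinase that phosphorylates ITAMs, was lower by 1.89 and not called (limma adjusted p = 0.0677). It was well above background on 4 Ladakhi arrays, with a Ladakhi SD of 2.33 against 0.43 in Sahiwal.

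Of 25 genes of the inhibitory arm, 7 were measured, 0 were called higher and 2 lower (median 0.15). PTPRC, the phosphatase CD45, was lower by 1.53 at its brightest probe, but its other measured probes ran from -0.10 to 2.92. SLA, which lowers antigen receptor levels, was lower by 0.67 (limma adjusted p = 0.0493). INPP5D (SHIP1) and PTPN6 (SHP-1), the phosphatases that inhibitory Fc receptors recruit, were not called (limma adjusted p = 0.0994 and 0.778).

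The list with the most measured genes was that of the phagocytosis effectors, with 22 of 34, of which 3 were called higher and 6 lower (median -0.52). RAC2, the RAC of blood cells that drives the oxidative burst, was lower by 2.05 (limma adjusted p = 0.0240), with a Ladakhi SD of 1.98 against 0.12 in Sahiwal. Its level in Ladakhi animal 3, -5.44, was not well above background, and without that animal RAC2 was lower by 1.21 (limma adjusted p = 0.00841). RAC1 was lower by 1.71 (limma adjusted p = 0.0366), with a second probe at -0.19. Its level in Ladakhi animal 2, -5.34, was not well above background, and without that animal the difference was -0.998 and was not called (limma adjusted p = 0.0525). WIPF1, a partner of the actin regulator WASP, was higher by 1.46 (limma adjusted p = 0.00375), and WASF2, which drives actin branching, was higher by 0.83 (limma adjusted p = 0.0176). The oxidase subunits NCF1, NCF4 and CYBA were measured and not called.

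Of the pathway genes named as called, FCGRT, VAV1, PRKCB, RAC2, WASF2 and WIPF1 kept the call in all 11 fits without an animal. CARD9 kept it in 10, losing it without Ladakhi 4, and PTPRC in 9, losing it without Ladakhi 2 or 4. RAC1 and CD247 kept it in 4 fits each, and TREM1, NCR3 and SLA in 2 each. Of the marker genes, LEF1 kept its call in 6 fits, while S100A8, LYZ, CST7, GNLY, BLK and CD2 kept theirs in all 11.

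**Figure D4:**
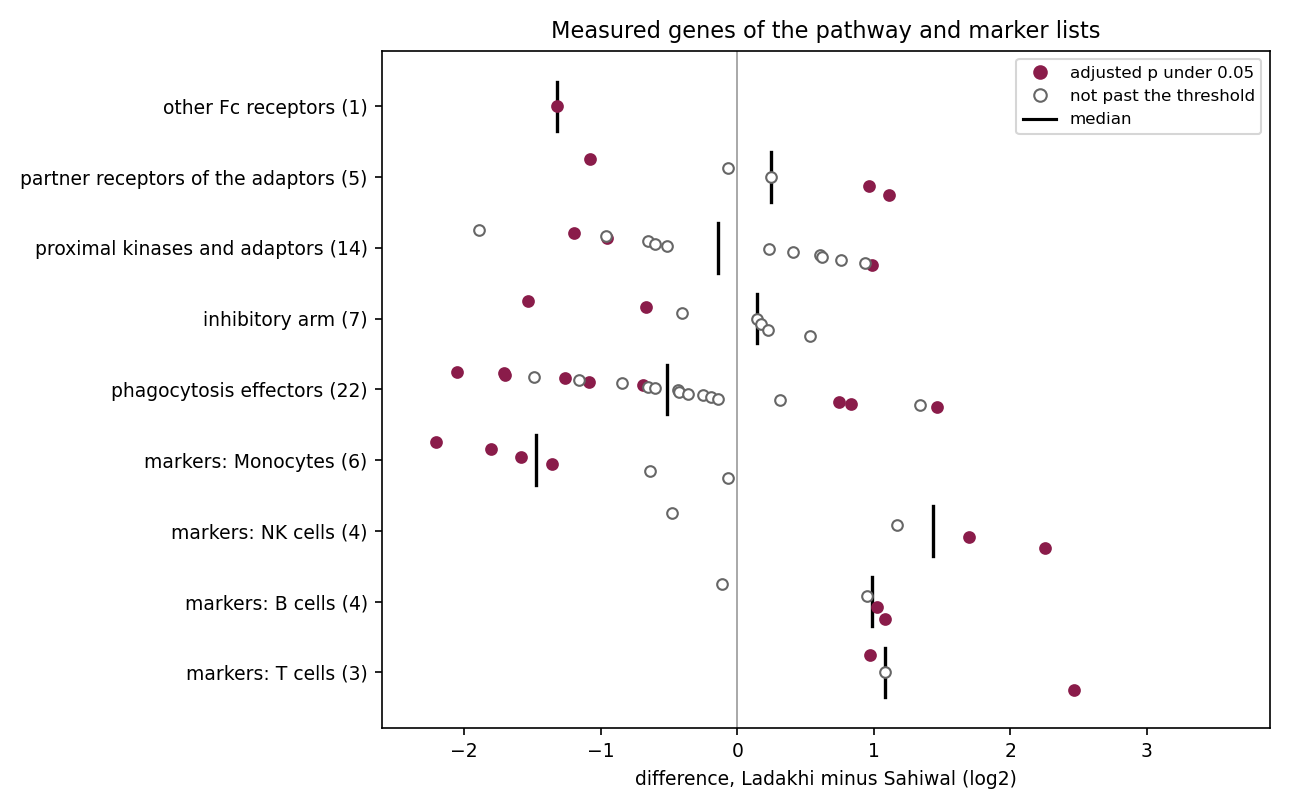
The difference between the breeds (horizontal axis, log2, Ladakhi minus Sahiwal) of each measured gene in the pathway and marker lists (vertical axis, number of measured genes in parentheses); dark red points have an adjusted p under 0.05 and black lines are list medians. The monocyte median lies at -1.47 and the NK median at 1.43, while the pathway lists with over 1 measured gene lie between -0.52 and 0.25.

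The probes whose pattern over the animals was most like a member's were found by centring each probe within its breed and taking the root mean square of the difference over the 11 animals, among 2128 probes. For FCER1G the nearest were HK3, a hexokinase (0.31), EHD1, a protein of endosome recycling (0.39), and TIMP2, a metalloprotease inhibitor (0.40). The median over all probes was 0.91. The TYROBP probes stood at ranks 5 and 13 of this order, at 0.41 and 0.44. For TYROBP A_73_118891 the nearest was its own second probe at 0.22, so the pair followed the same animals although their breed differences had opposite signs. The nearest other genes were RNASE6, a ribonuclease (0.30), TIMP2 (0.32) and VSIR, an inhibitory receptor (0.33), and FCER1G stood at rank 25. These likenesses are descriptions over 11 animals, and most of the spread comes from the Sahiwal animals.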

How the data were processed

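RNA of blood mononuclear cells from 5 Ladakhi and 6 Sahiwal animals was hybridised to Agilent bovine arrays in a single colour. The deposited intensity values are, per the file headers, processed Cy3 signals from Feature Extraction, background-subtracted, with a surrogate where a signal is not above background, and other columns hold the marks for spots well above background, saturated or outlying. The authors also deposited a log2 value table. Each of its columns matched an array other than its namesake, within the breed, so it served as an alternative for the breed comparison alone, and animal numbers are those of the scanner files and are unsettled. The number of arrays limits the precision.

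Control spots were left out, 294 outlier spots of 481833 were set missing, and spots of a probe were averaged. Breeds were compared with limma 3.58.1 (lmFit, eBayes) in R 4.3.3, which was tested on simulated data. By a rule written with the design, the text names all members and, per list, up to 2 called genes in each direction with the largest change, plus further genes chosen after their values were seen where it calls them not called. Of the genes this rule names, 1 is not reported here. The members and lists were chosen with earlier results of these data known. Replicate numbers in the labels did not pair the animals: deviations of animals with the same number correlated between -0.05 and 0.02. Alternatives covered the reference, normalization, background, filters, dim signals, outlier and saturated spots, slide, replicate block, array weights, probes of a gene and each animal left out.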

Additional observations from a re-analysis of the deposited data

How the results depend on the processing

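Quantile normalization, cyclic loess and normexp moved the median difference of the measured probes to 0.17, 0.41 and 0.29, and differences under them are relative to it. The count of called measured members was 2 and became 1 under quantile normalization, cyclic loess, normexp, the filter on all arrays of either breed, the replicate block and without Sahiwal 4 and 6, and 1 to 2 over the fits without an animal; the probe lost was FCGR3A in each. The 4 called tested members became 2 under cyclic loess and 2 under the filter on all arrays, and 8 with dim signals raised, because raised Ladakhi values then stand above Sahiwal levels under the limit; without an animal they were 3 to 4. Pathway genes called higher, 6, became 10 with dim signals raised and 3 with the replicate block (4 to 6 without an animal). Those called lower, 12, became 7 with the replicate block, 8 under quantile normalization, 4 without Sahiwal 4 and 6 and 7 to 10 without an animal. Their count rose to 17 under normexp and with slide as a random block, and to 14 with dim signals raised and without the filter. FCGR3A over TYROBP lost its call under normexp (-1.13) and when all measured probes of each gene were averaged (-1.19), and ranged from -1.84 to -1.14 without an animal. With the replicate block, the ratios differed by -3.06, -1.54 and 1.52, all with p = 0.0625, the smallest that 5 pairs allow in an exact test. The replicate numbers did not pair the animals.

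Apart from a TYROBP probe, the probes whose sign reversed had a Sahiwal mean below the Ladakhi limit. HCST A_73_P165332 was -0.45 under quantile normalization. SYK A_73_P366781 was -2.48 under quantile normalization, -0.68 under cyclic loess and -0.31 to 0.41 without an animal. FCGR3A A_73_P032171 was 0.61 under normexp, 0.88 with dim signals raised and 0.028 without Sahiwal 4 and 6. HCST A_73_P030886 was 0.73 under normexp, 1.09 with dim signals raised, 0.19 with array weights and -0.55 to 0.49 without an animal. TYROBP A_73_P030636 was 0.26 without Sahiwal 4 and 6. Apart from the dim signals, the cause was not tested.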
